A study of Homo sapiens with 9 samples.

Results

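The alpha-arrestin genes TXNIP, ARRDC1, ARRDC2, ARRDC3 and ARRDC4 were measured in DU145, a long-established line of human prostate carcinoma cells, on day 6 of treatment. They are 5 of the 16772 genes in the deposited table, found by gene symbol, and all 5 had values. The family was selected on results from these same libraries, in which ARRDC3 stood among the genes with the lowest levels after SAHA relative to solvent, so the members' values are given as a description without p-values, and how many passed the whole-table test is given only beside the share of all genes that did. The groups were wild-type DU145 cells given H93 at 20 µM, SAHA at 500 nM (vorinostat, a histone deacetylase inhibitor), both read as molar units, or DMSO, the solvent of both compounds. There were 3 libraries in each group, and the medium was renewed every day in all of them. The series title presents H93 as aimed at UHRF1, a protein that brings the maintenance DNA methyltransferase to newly copied DNA. The 2 compounds were used at different doses, so their values stand side by side.

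Alpha-arrestins are adaptor proteins with an arrestin fold and, in most members, PPxY motifs in the tail that bind the WW domains of NEDD4-family ubiquitin ligases. By this route they mark membrane proteins for ubiquitylation and endocytosis. TXNIP also binds thioredoxin and lowers glucose uptake, and its gene, like ARRDC4, is a well-known target of the glucose-sensing factor pair MondoA and MLX. ARRDC3 acts on integrin beta-4, and ARRDC1 drives the budding of vesicles from the plasma membrane. Induction of TXNIP by SAHA was described in other cancer lines.

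Values are FPKM, which is scaled for transcript length and library size, so levels can be set side by side between genes. Absolute read depth is unknown. Summed FPKM lay between 348656 and 355741 per library, and between 14910 and 15295 genes were above 0. The epithelial keratin genes KRT8 (664 to 737 FPKM) and KRT18 (653 to 714 FPKM) were high, and PTPRC and PECAM1, markers of blood and endothelial cells, stayed at or under 0.0377 FPKM. The epithelial genes KRT19 and EPCAM differed by group, with 420.4 ± 2.95 and 30.4 ± 1.08 FPKM with H93, 326 ± 10.8 and 37.8 ± 1.86 FPKM with SAHA, and 169 ± 1.59 and 67.1 ± 0.918 FPKM with DMSO (SD, n = 3 each), and their part in the results was not tested. The fibroblast marker COL1A1 lay between 2.04 and 3.58 FPKM. Nothing in the labels ties the replicates to separate cultures, so the errors and p-values cover library-to-library spread that may be only technical. In bulk RNA a lower share of expressing cells and less RNA per cell cannot be told apart.

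ARRDC3, which recruits NEDD4-family ligases to membrane proteins, was the most abundant alpha-arrestin mRNA under solvent and much lower under both compounds. Its FPKM was 4.68, 3.997 and 4.37 in the H93 libraries, 5.16, 5.08 and 4.98 in the SAHA libraries, and 15.9, 16.7 and 16.1 in the DMSO libraries. Every treated library was thus far below every DMSO library, and the H93 libraries were all below the SAHA libraries. The means were 4.35 ± 0.342 FPKM with H93, 5.07 ± 0.0889 FPKM with SAHA and 16.2 ± 0.416 FPKM with DMSO (SD, n = 3 each). That put H93 at 0.268 times and SAHA at 0.313 times the DMSO level. On the log2(FPKM + 1) scale the difference from DMSO was -1.69 (SE 0.0481) for H93 and -1.504 (SE 0.0481) for SAHA. Ranked from the lowest, ARRDC3 was number 11 of 11525 genes for H93 and number 10 for SAHA. H93 minus SAHA was -0.18 (SE 0.0481), small beside either difference from solvent.

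TXNIP, the thioredoxin-binding member, was low in all groups and lower in most treated libraries. It stood at 0.735, 0.716 and 1.34 FPKM in the H93 libraries, 0.831, 0.803 and 0.868 FPKM in the SAHA libraries, and 1.37, 1.31 and 1.31 FPKM in the DMSO libraries. The SAHA libraries all lay below the DMSO libraries, whereas H93 replicate 3 lay within the DMSO range. The means were 0.932 ± 0.357 FPKM with H93, 0.834 ± 0.0328 FPKM with SAHA and 1.33 ± 0.0364 FPKM with DMSO (SD, n = 3 each). The log2(FPKM + 1) difference from DMSO was -0.29 (SE 0.1001) for H93 and -0.35 (SE 0.1001) for SAHA. Without H93 replicate 3 the H93 difference was -0.43, at 0.545 times the DMSO level, and TXNIP then lay below the SAHA mean rather than above it. The highest H93 library was 1.88 times the lowest for TXNIP, a spread at the 95.2 percentile of the 1919 genes with a mean between 0.5 and 2 FPKM in H93. What set this library apart for TXNIP was not tested. Neither treated group had a mean TXNIP level above that of DMSO.

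ARRDC2, a less studied member, was moderately lower under both compounds. It had 5.57, 6.12 and 5.69 FPKM in the H93 libraries, 6.33, 6.56 and 6.31 FPKM in the SAHA libraries, and 8.07, 7.003 and 8.03 FPKM in the DMSO libraries. No treated library reached the lowest DMSO library, and the H93 libraries lay below the SAHA libraries. The means were 5.79 ± 0.290 FPKM with H93, 6.40 ± 0.141 FPKM with SAHA and 7.70 ± 0.603 FPKM with DMSO (SD, n = 3 each). The log2(FPKM + 1) difference from DMSO was -0.36 (SE 0.0538) for H93 and -0.23 (SE 0.0538) for SAHA.

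ARRDC1, the member that drives vesicle budding, differed little between groups. Its FPKM was 8.19, 8.02 and 9.23 in the H93 libraries, 7.57, 7.09 and 7.54 in the SAHA libraries, and 8.003, 8.13 and 7.89 in the DMSO libraries. H93 and DMSO overlapped, the SAHA libraries all lay below both, and H93 replicate 3 was again the highest. The log2(FPKM + 1) difference was 0.07 (SE 0.0497) for H93 minus DMSO, -0.10 (SE 0.0497) for SAHA minus DMSO and 0.17 (SE 0.0497) for H93 minus SAHA. Without H93 replicate 3, H93 minus SAHA was 0.12.

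ARRDC4, like TXNIP a glucose-responsive gene, was under 1 FPKM in every library. It stood at 0.834, 0.937 and 0.845 FPKM in the H93 libraries, 0.622, 0.656 and 0.651 FPKM in the SAHA libraries, and 0.536, 0.767 and 0.601 FPKM in the DMSO libraries. The H93 libraries were all above the others, and SAHA overlapped DMSO. At 0.872 ± 0.0564 FPKM with H93 against 0.635 ± 0.119 FPKM with DMSO (SD, n = 3 each), it was the member whose mean stood at 1.37 times the solvent level. With SAHA its mean was 0.643 ± 0.0183 FPKM (SD, n = 3).

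**Figure D1:**
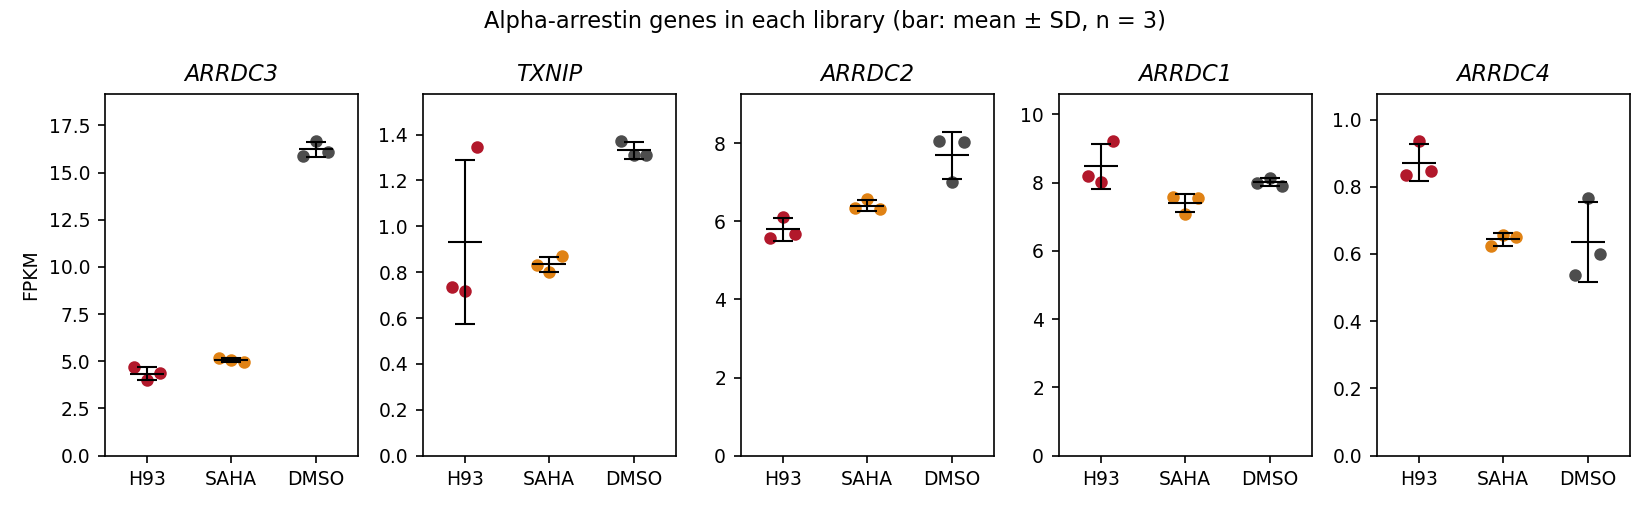
FPKM of each alpha-arrestin gene (vertical axes from 0, one scale per gene) in the H93, SAHA and DMSO libraries; points are libraries and bars the mean ± SD of 3 libraries. ARRDC3 lies between 3.997 and 5.16 FPKM in the treated libraries and between 15.9 and 16.7 FPKM in DMSO, and 1 H93 library of TXNIP sits at 1.34 FPKM, within the DMSO range.

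The filter on low values kept genes with at least 1 FPKM in at least 3 of the 9 libraries, and 4 of the 5 members passed. ARRDC4 did not pass, and TXNIP passed through its 3 DMSO libraries and H93 replicate 3. For H93 against DMSO, 3 of the 4 were called lower and 0 higher (limma, Benjamini-Hochberg adjusted p under 0.05 over all kept genes), where 35.0% of kept genes were called lower and 34.9% higher. The TXNIP call was lost without DMSO replicate 1, H93 replicate 1 or H93 replicate 2. For SAHA against DMSO it was again 3 lower and 0 higher, against 31.4% and 27.4% of kept genes. For H93 against SAHA, ARRDC3 was called lower and ARRDC1 higher, against 13.9% and 17.6%. The ARRDC1 call was lost without H93 replicate 3 (difference 0.12) or SAHA replicate 2 (0.15). The groups did not overlap for 3, 4 and 4 of the 5 members in these comparisons, in the same order, where 73.2%, 64.1% and 44.4% of kept genes did not overlap. ARRDC3 also passed the 2-fold call, which adds a log2 difference of at least 1. Of kept genes, 0.816% were lower by that call with H93 and 0.373% with SAHA. Because the members were chosen from these comparisons, nothing is read from these counts. The comparisons with DMSO share their 3 DMSO libraries.

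ARRDC3 made up less of the family's summed level in treated than in DMSO libraries. Summed over the 5 genes, FPKM was 20.4 ± 0.919 with H93, 20.4 ± 0.164 with SAHA and 33.9 ± 0.0368 with DMSO (SD, n = 3 each). ARRDC3 made up 21.3 ± 1.80% of the sum with H93, 24.9 ± 0.388% with SAHA and 47.9 ± 1.21% with DMSO (SD, n = 3 each). Without ARRDC3 the sum was 16.1 ± 0.921 FPKM with H93, 15.3 ± 0.147 FPKM with SAHA and 17.7 ± 0.406 FPKM with DMSO (SD, n = 3 each), so most of the gap between treated and solvent sums lay in that gene. In H93 and in SAHA the order of levels was ARRDC1, ARRDC2, ARRDC3, TXNIP and ARRDC4. In DMSO ARRDC3 came first, followed by ARRDC1, ARRDC2, TXNIP and ARRDC4. Neighbours in these orders overlapped in their libraries only for TXNIP and ARRDC4 in H93 and for ARRDC1 and ARRDC2 in DMSO.

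**Figure D2:**
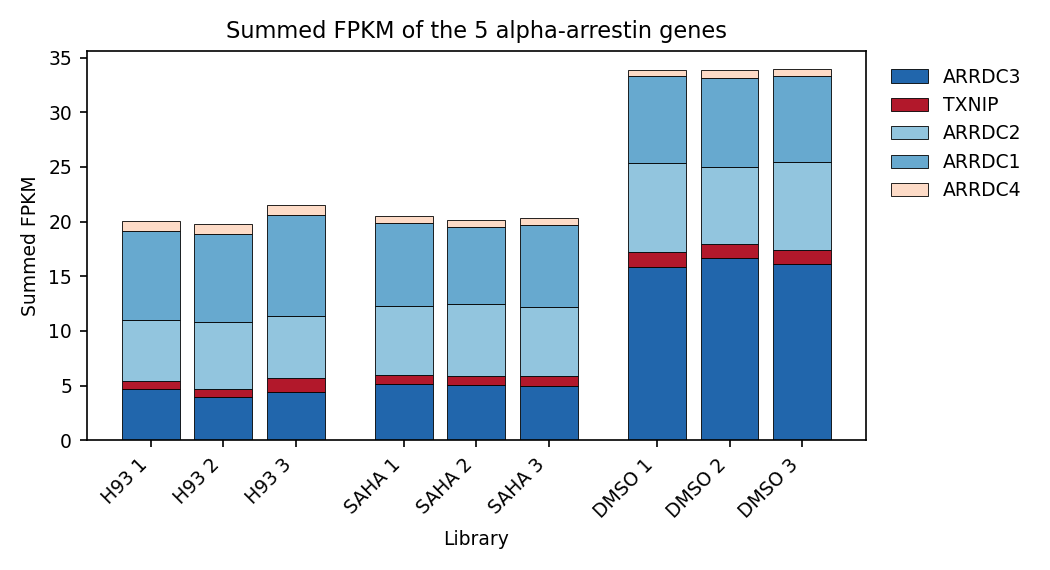
Summed FPKM of the 5 alpha-arrestin genes (vertical axis) in each library, stacked by gene. The H93 and SAHA bars are shorter than the DMSO bars mainly in the ARRDC3 segment at the base, which averages 4.35, 5.07 and 16.2 FPKM in H93, SAHA and DMSO.

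The 5 genes lie on 5 chromosomes as protein-coding genes in the GRCh38 annotation of GENCODE release 29. ARRDC3 is on the minus strand of chromosome 5 from 91368724 to 91383359, TXNIP on the minus strand of chromosome 1 from 145992435 to 145996600, and ARRDC2 on the plus strand of chromosome 19 from 18001132 to 18014102. ARRDC1 is on the plus strand of chromosome 9 from 137605654 to 137615360 and ARRDC4 on the plus strand of chromosome 15 from 97960698 to 97973838. The antisense RNA gene ARRDC3-AS1 overlaps ARRDC3 by 3011 bases and ARRDC1-AS1 overlaps ARRDC1 by 29 bases. A further annotated transcript on the same strand as ARRDC1 overlaps it by 9617 bases, nearly its whole length, and one on the opposite strand overlaps ARRDC2 by 442 bases. None of these overlapping genes was found by symbol in the deposited table, so their levels could not be looked at. The library kit keeps strand but the use of strand in counting is not given in the sources used here, so antisense reads cannot be told apart from those of ARRDC1, ARRDC2 or ARRDC3, and no strand setting would separate the same-strand transcript from ARRDC1. The nearest kept protein-coding genes on either side of ARRDC3, ADGRV1 at 204286 bases and NR2F1 at 2199864 bases, both had higher means with each compound than with DMSO. These neighbours were looked up after the values were seen. ADGRV1 had 1.74 ± 0.0385 FPKM with H93, 1.45 ± 0.165 FPKM with SAHA and 0.650 ± 0.0624 FPKM with DMSO, with log2 differences from DMSO of 0.73 and 0.57. It passed the filter on low values, and so counted as a kept neighbour, only through the groups where it was high. No p-value is given for it.

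Promoter windows from RefSeq (GRCh38.p14, 250 bases before to 50 after each start site) were found for all 5 members, 8 windows in all. Both windows of ARRDC3, the gene with the largest difference, the first window of TXNIP, and that of ARRDC4, the other glucose-responsive gene, are shown, cut to the bases upstream of the start site and outside annotated exons, 5′ to 3′ on the gene's strand. Capitals mark exact matches, on either strand, to the E-box CACGTG, the NF-Y box CCAAT, the FOXO site GTAAACA, the GC box GGGCGG, the TATA box TATAAA, or a looser E-box pair of 2 sites, each CACGNG, separated by 5 bases. The looser pair was added after the windows were seen. No 2 matches overlap in the stretches shown.
ARRDC3, first start, chr5:91383360-91383567, minus strand: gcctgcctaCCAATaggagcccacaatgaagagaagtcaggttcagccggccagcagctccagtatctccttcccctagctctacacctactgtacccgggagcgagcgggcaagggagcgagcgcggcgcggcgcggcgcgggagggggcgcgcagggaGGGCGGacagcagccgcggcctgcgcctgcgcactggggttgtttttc
ARRDC3, second start, chr5:91380152-91380347, minus strand: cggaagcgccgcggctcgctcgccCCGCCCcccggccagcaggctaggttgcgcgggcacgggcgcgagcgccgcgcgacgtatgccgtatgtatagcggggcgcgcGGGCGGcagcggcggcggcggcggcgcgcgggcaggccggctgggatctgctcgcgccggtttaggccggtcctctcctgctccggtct
TXNIP, first start, chr1:145996601-145996829, minus strand: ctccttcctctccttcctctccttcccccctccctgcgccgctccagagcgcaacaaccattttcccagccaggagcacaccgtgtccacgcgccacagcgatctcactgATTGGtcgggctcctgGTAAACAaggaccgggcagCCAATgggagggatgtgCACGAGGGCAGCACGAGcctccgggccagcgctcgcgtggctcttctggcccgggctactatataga
ARRDC4, chr15:97960453-97960697, plus strand: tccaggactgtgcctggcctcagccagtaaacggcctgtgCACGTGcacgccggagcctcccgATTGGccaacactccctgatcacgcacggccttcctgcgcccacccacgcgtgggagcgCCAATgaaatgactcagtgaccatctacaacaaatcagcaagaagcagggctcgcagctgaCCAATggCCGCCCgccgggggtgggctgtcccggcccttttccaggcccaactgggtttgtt

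Counted over whole windows, CCAAT was found in 5 of the 8 member windows and in 34.6% of all 35116 windows. The FOXO letters were in 2 of the 8, the first TXNIP window and the second ARRDC3 window, against 3.42% of all windows. In ARRDC3 they lie 29 bases before the start site, in annotated exon sequence that is not printed. The GC box was in 6 of the 8 member windows and in 15786 of the 35116, with 10 matches in the ARRDC1 window alone. The TATA box was in 1, the second ARRDC2 window, against 11.5%. CACGTG was in the ARRDC4 window, against 7.26% of all windows, and the looser pair in the first TXNIP window, against 0.057%. The strict pair, with CACGTG at both sites, was in 0 of the 8, against 0.0057%. These are matches of letters in short windows, and binding was not measured. The first and second ARRDC3 windows were 65.0% and 72.0% G or C with 26 and 47 CpG pairs, and the ARRDC4 window 65.0% with 24 pairs. The first TXNIP window was 60.3% G or C with 19 pairs. The second TXNIP window, which is not printed and held no match, was 40.0% with 4 pairs, below the medians of 58.7% and 14 pairs over all windows. DNA methylation at these sites was not measured.

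**Figure D3:**
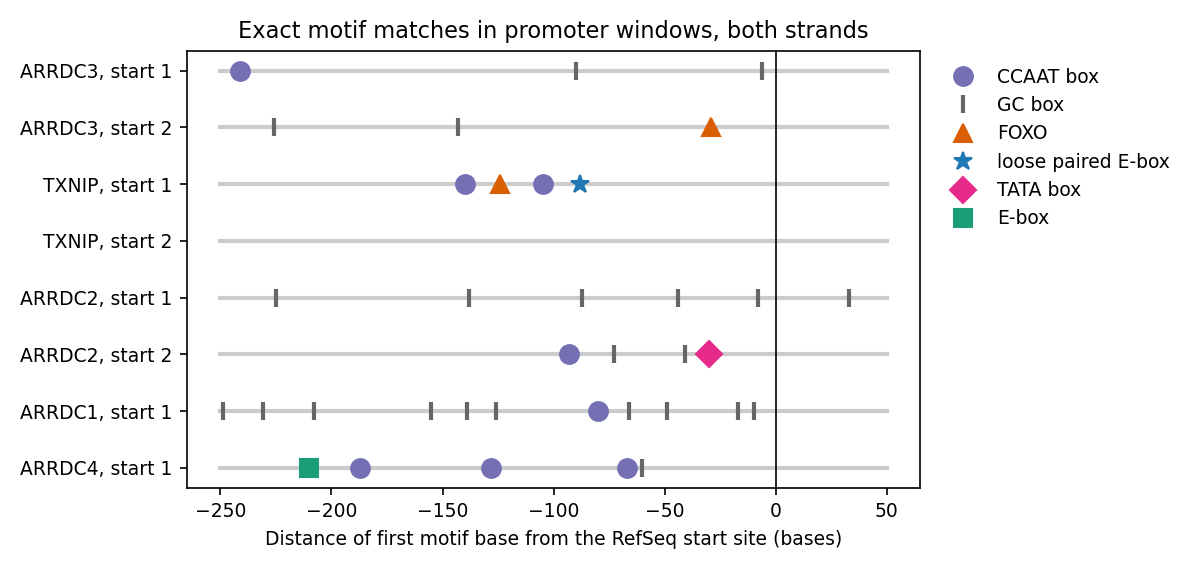
Positions of exact motif matches in the 8 promoter windows of the alpha-arrestin genes; the horizontal axis is the distance in bases of the first motif base from the RefSeq start site, and each row is 1 window. GC boxes crowd the ARRDC1 window (10 matches), CCAAT boxes lie in 5 windows, and FOXO matches in 1 TXNIP and 1 ARRDC3 window.

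By the gene annotation in the authors' table, all 5 members carry the term protein transport, which 315 of 16772 genes carry. The 4 ARRDC genes are annotated to the plasma membrane, and TXNIP is not. ARRDC3 and ARRDC4 share early endosome and positive regulation of ubiquitin-protein transferase activity. ARRDC1 and ARRDC4 are the 2 genes of the table annotated to extracellular vesicle biogenesis.

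Of all kept genes outside the family, 3 had the profiles over the 9 libraries nearest to that of ARRDC3, by the root-mean-square distance of log2(FPKM + 1) values centred on each gene's mean. They were C3, a complement protein gene, at a distance of 0.0853 (Pearson r = 0.994), IER5L, an immediate early gene relative, at 0.1001 (r = 0.992), and NAPSA, an aspartic protease gene, at 0.109 (r = 0.991). C3 had 1.20 ± 0.0675 FPKM with H93, 1.38 ± 0.148 FPKM with SAHA and 5.76 ± 0.358 FPKM with DMSO (SD, n = 3 each). IER5L had 3.58 ± 0.466 FPKM with H93, 3.89 ± 0.437 FPKM with SAHA and 13.7 ± 0.869 FPKM with DMSO. NAPSA had 0.477 ± 0.116 FPKM with H93, 0.752 ± 0.0887 FPKM with SAHA and 4.04 ± 0.200 FPKM with DMSO. It passed the filter on low values only through DMSO, and this scale understates differences at such low levels, so its nearness to ARRDC3 depends on the scale. These r values describe 9 libraries that fall into 3 treatment groups and share their scaling. The other kept members had group means spanning under 0.5 on this scale, at 0.35 for TXNIP, 0.17 for ARRDC1 and 0.36 for ARRDC2, and were not matched.

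**Figure D4:**
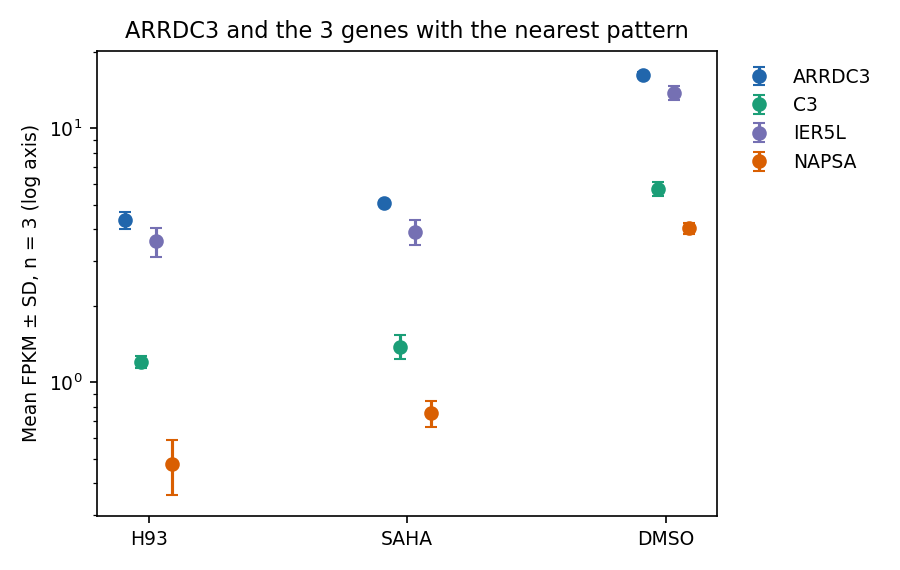
Mean FPKM ± SD of 3 libraries (log axis) for ARRDC3, C3, IER5L and NAPSA in H93, SAHA and DMSO. All 4 genes are lower in both treated groups than in DMSO, with ARRDC3 at 4.35, 5.07 and 16.2 FPKM and C3 at 1.20, 1.38 and 5.76 FPKM.

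The NEDD4-family ligases, which the ARRDC proteins recruit, moved in both directions, and NEDD4L and SMURF2 rose the most. NEDD4L, a ligase known for ion channels, had 31.6, 32.1 and 31.7 FPKM in the H93 libraries, 27.2, 27.7 and 27.8 FPKM in the SAHA libraries, and 12.9, 12.9 and 13.1 FPKM in the DMSO libraries. Its log2 difference from DMSO was 1.23 (SE 0.0265, limma adjusted p = 3.12e-12, Benjamini-Hochberg) for H93 and 1.03 (SE 0.0265, adjusted p = 2.93e-11) for SAHA. SMURF2, a ligase of TGF-beta signalling, had 27.0 ± 0.223 FPKM with H93, 25.2 ± 0.132 FPKM with SAHA and 13.4 ± 0.365 FPKM with DMSO (SD, n = 3 each), and rose with both. HECW1, NEDD4 and WWP2 fell with both, NEDD4 having 25.7 ± 0.371 FPKM with H93, 24.5 ± 0.402 FPKM with SAHA and 29.8 ± 0.379 FPKM with DMSO (SD, n = 3 each). HECW1 was above 1 FPKM only in the DMSO libraries. It thus passed the filter on low values only through the group where it was high, and nothing is read from its fall. Of 8 kept ligase genes 3 rose and 4 fell with H93, with a median log2 difference of -0.055 against 0.0016 over all kept genes. With SAHA the counts were again 3 and 4 and the median -0.055, against -0.015 over all kept genes. These shares and those of the lists that follow stand against the percentages of kept genes called higher and lower given above.

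Other proteins with PPxY motifs bind the same ligases. Of 7 kept genes in that list 5 rose and 2 fell with each compound, and the median log2 difference was 0.36 for H93 and 0.22 for SAHA. NDFIP2, an adaptor of these ligases on endosomes, had 20.0 ± 0.241 FPKM with H93, 17.8 ± 0.672 FPKM with SAHA and 12.1 ± 0.534 FPKM with DMSO (SD, n = 3 each). AMOT and AMOTL1, angiomotins that bind YAP, also rose with both, while PMEPA1, an antagonist of TGF-beta signalling, and TMEM51 fell with both. For H93 against SAHA 5 of the 7 were called higher and 0 lower, a count of 2 without H93 replicate 1 or SAHA replicate 3 and of 3 without H93 replicate 2.

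Reported cargoes and partners moved in both directions. ITGB4, integrin beta-4, an ARRDC3 cargo, fell to 6.37 ± 0.304 FPKM with H93 and 6.16 ± 0.236 FPKM with SAHA, against 8.54 ± 0.216 FPKM with DMSO (SD, n = 3 each). NOTCH1, a receptor that ARRDC1 acts on, fell with both, and TSG101, the ESCRT protein that ARRDC1 recruits to bud vesicles, rose with both to 35.4 ± 0.573 FPKM with H93 and 33.4 ± 1.20 FPKM with SAHA, against 28.7 ± 0.768 FPKM with DMSO (SD, n = 3 each). The glucose transporter gene SLC2A3 rose to 1.39 ± 0.153 FPKM with H93 and 1.56 ± 0.129 FPKM with SAHA, against 0.814 ± 0.0550 FPKM with DMSO (SD, n = 3 each). SLC2A3 was under 1 FPKM in every DMSO library. It thus passed the filter on low values only through the groups where it was high, and nothing is read from its rise. Of 11 kept genes 5 rose and 4 fell with each compound, with median log2 differences of 0.13 for H93 and 0.12 for SAHA. SLC2A1, the main glucose transporter that TXNIP removes from the surface, is named here after its values were seen. It fell slightly, to 69.3 ± 1.501 FPKM with H93 and 71.9 ± 2.20 FPKM with SAHA, against 75.8 ± 1.35 FPKM with DMSO (SD, n = 3 each).

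The thioredoxin system held the binding partner of TXNIP. TXN, cytosolic thioredoxin, fell to 320 ± 6.98 FPKM with H93 and 331 ± 6.49 FPKM with SAHA, against 373 ± 5.51 FPKM with DMSO (SD, n = 3 each). TXNRD1, its reductase, rose to 661 ± 7.81 FPKM with H93 and 693 ± 11.2 FPKM with SAHA, against 619 ± 4.68 FPKM with DMSO. PRDX2, a peroxidase that thioredoxin recycles, fell to 63.2 ± 1.69 FPKM with H93 and 70.5 ± 2.33 FPKM with SAHA, against 127 ± 3.27 FPKM with DMSO (log2 difference -0.85 for SAHA; limma adjusted p = 6.91e-11 for H93 and 5.15e-10 for SAHA, Benjamini-Hochberg). PRDX3, TXNRD2 and TXN2, which act in mitochondria, fell with both compounds as well. Of 15 kept genes 4 rose and 6 fell with each compound, with median log2 differences of -0.035 for H93 and -0.032 for SAHA.

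The glucose-sensing factors that act on TXNIP and ARRDC4 differed little. MLXIP, which encodes MondoA, had 12.5 ± 0.302 FPKM with H93, 11.9 ± 0.443 FPKM with SAHA and 12.4 ± 0.166 FPKM with DMSO (SD, n = 3 each), with log2 differences from DMSO of 0.013 and -0.055 (limma adjusted p = 0.767 and 0.211, Benjamini-Hochberg). Its partner MLX fell with H93, to 37.3 ± 0.587 FPKM against 40.2 ± 0.973 FPKM with DMSO. MLX was at 39.2 ± 0.616 FPKM with SAHA, and the difference between H93 and SAHA did not pass (limma adjusted p = 0.0698, Benjamini-Hochberg). MLXIPL, which encodes ChREBP, fell with both compounds, to 2.55 ± 0.359 FPKM with H93 and 2.39 ± 0.146 FPKM with SAHA, against 2.99 ± 0.0573 FPKM with DMSO. For H93 the limma adjusted p was 0.0389 (Benjamini-Hochberg), and H93 replicate 2, at 2.94 FPKM, lay within the DMSO range. Of these 3 genes 0 rose and 2 fell with H93, and 0 rose and 1 fell with SAHA. The H93 count was 1 without any one of the 3 DMSO libraries, H93 replicate 1 or H93 replicate 3.

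Of the listed genes for glucose uptake, which TXNIP restrains, and for glycolysis, most fell at the mRNA level. Glucose uptake itself was not measured. The transporter genes SLC2A1, SLC2A3 and SLC2A4 also stand in the list of cargoes and partners, so the counts of both lists share them. Of 15 kept genes 4 rose and 10 fell with H93, and 4 rose and 8 fell with SAHA, with median log2 differences of -0.20 and -0.075. SLC2A3, among the 4 that rose with each compound, passed the filter only through the treated libraries. GPI, glucose-6-phosphate isomerase, fell to 37.3 ± 0.849 FPKM with H93 and 45.1 ± 1.55 FPKM with SAHA, against 65.2 ± 0.160 FPKM with DMSO (SD, n = 3 each). PFKL, a phosphofructokinase subunit, and LDHA, a lactate dehydrogenase subunit, fell with both, and the hexokinase gene HK1 rose with both to 63.2 ± 1.29 FPKM with H93 and 62.7 ± 1.47 FPKM with SAHA, against 45.4 ± 0.634 FPKM with DMSO. For H93 against SAHA 7 were called lower and 0 higher.

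FOXO factors are known to act on several growth-restraining genes. The list holds FOXO factor genes beside target genes, and the counts cover both. With H93 the kept FOXO genes all rose, while the targets were mixed, with some not passing. Of 11 kept genes 7 rose and 1 fell with H93, and 4 rose and 1 fell with SAHA, with median log2 differences of 0.26 and 0.028. CITED2, a transcriptional co-regulator, rose to 116 ± 1.47 FPKM with H93 and 86.6 ± 2.23 FPKM with SAHA, against 51.5 ± 0.734 FPKM with DMSO (SD, n = 3 each). FOXO4 itself and BCL6, a repressor gene, rose with both, while IRS2, an insulin receptor substrate gene, fell with both. SESN3, a sestrin gene, rose with H93 to 5.79 ± 0.260 FPKM against 3.46 ± 0.120 FPKM with DMSO, and was higher with H93 than with SAHA, where it had 3.86 ± 0.223 FPKM (log2 difference 0.48, limma adjusted p = 6.87e-05, Benjamini-Hochberg).

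Glucocorticoid receptor targets, among which ARRDC2 is counted, were listed together with the receptor gene, and the list was mixed. Of 9 kept genes 5 rose and 3 fell with each compound, with median log2 differences of 0.23 for H93 and 0.28 for SAHA. The receptor gene itself was among those that fell with each compound. DDIT4, an inhibitor of mTOR signalling, fell to 26.5 ± 0.688 FPKM with H93 and 32.9 ± 0.774 FPKM with SAHA, against 68.1 ± 1.38 FPKM with DMSO (SD, n = 3 each). SGK1, a kinase gene, rose to 9.14 ± 0.235 FPKM with H93 and 6.34 ± 0.141 FPKM with SAHA, against 3.56 ± 0.166 FPKM with DMSO. DUSP1, a MAP kinase phosphatase gene, KLF9 and TSC22D3 rose with both.

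Among other genes of the arrestin fold, most did not pass the test. ARRB1, beta-arrestin 1, fell to 4.60 ± 0.126 FPKM with H93 and 5.00 ± 0.0930 FPKM with SAHA, against 6.79 ± 0.463 FPKM with DMSO (SD, n = 3 each). VPS26C, an endosomal sorting subunit, rose with both compounds. ARRB2, VPS26A and VPS26B did not pass in either comparison, with log2 differences from DMSO between -0.080 and 0.069 over both compounds. Of 5 kept genes 1 rose and 1 fell with each compound, with median log2 differences of 0.021 for H93 and 0.0030 for SAHA. The sixth alpha-arrestin gene, ARRDC5, did not pass the filter on low values.

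**Figure D5:**
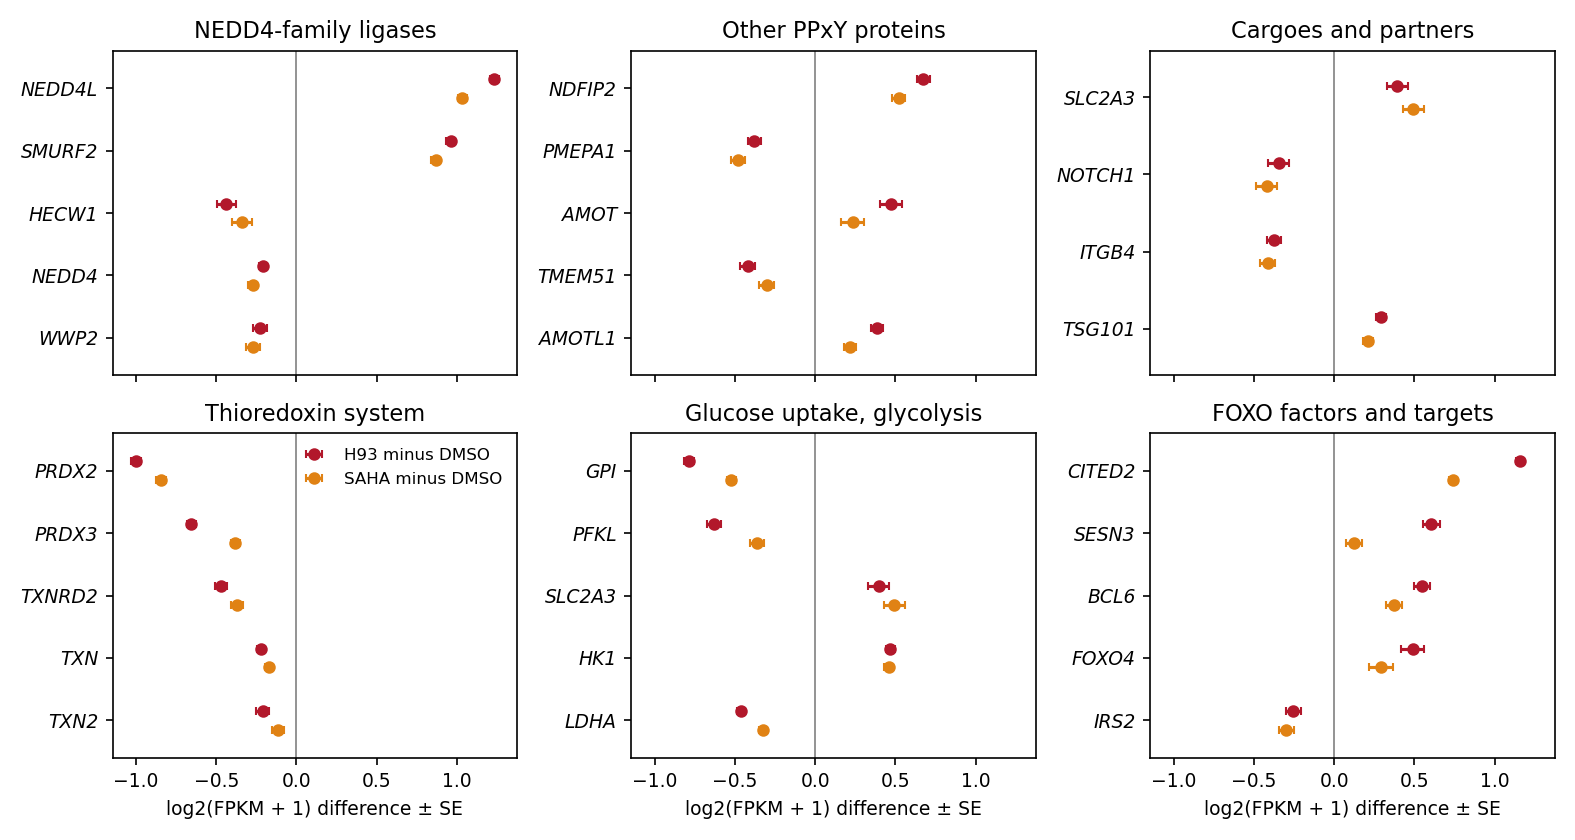
Difference in log2(FPKM + 1) from DMSO, ± SE (horizontal axes), for up to 5 genes in each of 6 lists, with H93 minus DMSO above SAHA minus DMSO for each gene. NEDD4L (1.23 and 1.03) and SMURF2 (0.96 and 0.87) lie to the right for both compounds, and PRDX3 (-0.66 and -0.38) and GPI (-0.79 and -0.52) to the left.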

How the data were processed

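RNA sequencing of 9 DU145 libraries was analysed. Per the labels' protocols, TRIzol RNA went into a TruSeq kit that keeps strand. The authors deposited FPKM per gene and library. Listed without roles in the submitters' processing notes are HISAT2, Trimmomatic 0.36, Cufflinks and the build GRCh38.p13. Which annotation was used, and whether counting used strand, is not given in the sources used here. Columns were matched to samples by name. Absolute depth is unknown, so no counting interval was computed.

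Values were analysed as log2(FPKM + 1), which understates differences of low genes. Genes with at least 1 FPKM in at least 3 of the 9 libraries were kept, which left 11525 of 16772. One limma model (version 3.58.1, R 4.3.3) held the 3 group means over the 9 libraries, with moderation along a trend in mean level; it had 6 residual degrees of freedom and 6.05 from the prior. P-values are two-sided and were adjusted by Benjamini-Hochberg across all kept genes; "rose" and "fell" mean an adjusted p under 0.05. ARRDC4 failed the filter, and its errors came from a fit without it. The fit was tested on simulated data. Exact permutation of 3 against 3 libraries cannot go below p = 0.1, so it was not used. No pairing of libraries by replicate number was seen in the values, and no batch is labelled.

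The members, the 9 gene lists from textbook knowledge, the tests and the rule for named genes were chosen with earlier results of these data known. Named were the members, MLXIP, MLX, TXN, TXNRD1, up to 5 kept genes per list with the largest absolute difference from DMSO, and the 3 genes nearest in profile to each member whose group means spanned at least 0.5. A gene that this rule names, and some marker genes, are not reported here. Neighbouring genes were taken by position. Positions came from GENCODE release 29 and promoters from RefSeq GRCh38.p14, patch releases that share chromosome coordinates. Alternatives were pseudocounts of 0.1 and 5, no filter, keeping genes averaging 5 FPKM or more, 3 rescalings (quantile, median-ratio, fixed sum), robust moderation, only the 6 libraries compared, a replicate block, and leaving out each library. Tables and plots were made in Python 3.11.15 with pandas 2.3.3, numpy 2.4.6 and matplotlib 3.10.9.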

Additional observations from a re-analysis of the deposited data

How the results depend on the processing

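Of 285 recomputed member differences, 274 kept their direction and side of the threshold, or, for ARRDC4, untested in the main fit, moved by less than 1 SD. The 274 include TXNIP at a mean FPKM of at least 5, where it was not tested and its differences were unchanged. They also include ARRDC4 without the filter, where it was tested. There 8834 genes passed an adjusted p of 0.05 for H93 against DMSO and 3184 for H93 against SAHA, with ARRDC4 among both. TXNIP for H93 against SAHA, not called, was -0.088 without H93 replicate 3, against 0.06 with all libraries, and ran up to 0.14 without single other libraries. ARRDC4 for SAHA against DMSO, near 0, also changed sign in 3 alternatives, within 1 SD. ARRDC3 stayed between -1.88 and -1.18 for H93 against DMSO and between -1.66 and -1.07 for SAHA against DMSO over all alternatives. TXNIP for H93 against DMSO ran from -0.43 to -0.21 when single libraries were left out, and lost its call without DMSO replicate 1, H93 replicate 1 or H93 replicate 2. With pseudocounts of 0.1 and 5 it was -0.52 and -0.096 for H93 against DMSO, and -0.62 and -0.12 for SAHA against DMSO, called in each case. ARRDC1 ran from 0.12 to 0.21 for H93 against SAHA, losing its call without H93 replicate 3 or SAHA replicate 2, and from -0.12 to -0.074 for SAHA against DMSO, gaining one without H93 replicate 3. ARRDC4 was 0.41 for H93 against DMSO and 0.39 for H93 against SAHA with a pseudocount of 0.1, and 0.0597 and 0.0573 with a pseudocount of 5, as the scale compresses low values.

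Genes past the 2-fold call numbered 540 (H93 against DMSO), 292 (SAHA against DMSO) and 8 (H93 against SAHA) with a pseudocount of 0.1, 74, 30 and 1 with a pseudocount of 5, and 156, 78 and 1 at a mean FPKM of at least 5. These compare with 263, 129 and 2 as reported. For H93 against SAHA the count was 1 with no filter, with robust moderation and with only the 6 libraries compared, and 1 to 3 when single libraries were left out. With the replicate block 7986, 6649 and 3426 genes passed an adjusted p of 0.05, against 8050, 6780 and 3629. Deviations of same-numbered libraries of different groups correlated between -0.0975 and 0.0355 (9 pairs). Those of differently numbered libraries correlated between -0.0495 and 0.0697 (18 pairs), so no pairing by number was seen in the values. Whether same-numbered libraries were handled together is not known. The block gave 1 MondoA-ChREBP-MLX gene in place of 2 for H93.

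List counts that moved by over 1.5 times were as follows. The MondoA-ChREBP-MLX genes called for H93 numbered 1 without the filter and at a mean of at least 5, and 1 to 2 when single libraries were left out. At that mean the SAHA count was 0, FOXO genes numbered 2 with each compound and 1 for H93 against SAHA, and glucocorticoid genes 4 with each compound, since fewer genes were tested. For H93 against SAHA, without the filter 3 PPxY, 0 arrestin-fold and 3 thioredoxin genes were called. Median-ratio rescaling gave 1 MondoA-ChREBP-MLX and 0 arrestin-fold genes, quantile normalization 0 arrestin-fold genes, and a fixed sum 3 thioredoxin genes and 2 cargoes. Left-out libraries gave 2 to 5 PPxY, 0 to 1 arrestin-fold and 3 to 5 thioredoxin genes. Apart from the fewer genes tested, the cause was not tested. On the forward strand only, CCAAT was in 3, the FOXO site in 1 and the GC box in 5 member windows.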
